A study of Mus musculus with 66 samples.

Results

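The genes described here are 64 cell adhesion molecules of the medial prefrontal cortex of the mouse: cadherins, protocadherins, neurexins, neuroligins, contactins, contactin-associated proteins and the Lrrtm, Slitrk and Cadm families. They were chosen by symbol. A gene was kept when the mean of its probe set over all 66 arrays lay at or above the 40th percentile of all probe sets (log2 5.10), and the brightest probe set stood for the gene. Of 84 symbols that matched, 64 were kept and 20 were too dim, among 13196 genes measured in all. Pcdhb15 (mean 5.13) and Pcdhb11 (5.15) lay just inside the limit, and Cdh15 (5.06) and Pcdhb5 (4.99) just outside. Values are log2 expression levels, so a difference of 1 is a doubling, and levels of different probe sets were not set against each other.

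The mice were males of 10 to 12 weeks, and each array carried RNA pooled from 4 to 5 of them. C57BL6/J and DBA/2J, both inbred, had 3 arrays after saline and 3 after ethanol. The BXD panel, recombinant inbred strains descended from these progenitors, contributed 27 strains, each measured once after saline and once after ethanol. Ethanol was injected intraperitoneally at 1.8 g/kg. Every mouse, saline controls included, also underwent 15 minutes of restraint and 10 minutes in a light-dark chamber, and was killed 4 hours after injection.

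Classical cadherins join 2 cells by binding their own kind across the gap in the presence of calcium, and their inner tails hold catenins that reach the actin cytoskeleton. Clustered protocadherins are expressed in different combinations by different neurons and give each cell a surface identity. Neurexins sit mainly on the presynaptic side and bind neuroligins and Lrrtm proteins of the postsynaptic side, while contactins and contactin-associated proteins act along axons, at nodes of Ranvier and at synapses.

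Of the listed markers, 7 of 8 for cortical excitatory neurons and 7 of 7 for inhibitory neurons passed the filter, and so did 7 of 9 for striatum and 9 of 9 for meninges, so this filter does not tell the labelled tissue from its neighbours. Array medians lay between 5.67 and 5.77. Myelin genes moved with strain. All 8 oligodendrocyte and myelin markers measured (of 9 listed) were lower in DBA/2J after saline (median difference -0.72, adjusted p below 0.05 in limma) and 4 of 8 after ethanol (median -0.40). Their mean level spanned 8.89 to 8.99 in C57BL6/J and 8.00 to 8.32 in DBA/2J after saline, and 8.61 to 8.92 and 8.20 to 8.32 after ethanol. After saline, 1 of 7 astrocyte and 2 of 8 microglial markers were also lower in DBA/2J, where 6.27% of all genes passed as lower. None passed among 7 excitatory, 7 inhibitory, 5 oligodendrocyte precursor, 7 endothelial, 9 meningeal and 7 striatal markers. After ethanol the calls were 1 excitatory and 1 astrocyte marker lower, 1 inhibitory marker higher and 1 microglial marker in each direction. Of the meningeal markers 1 was higher and 2 were lower. Among all genes 4.34% passed as higher and 2.89% as lower. All 8 myelin markers also differed among the BXD strains (moderated F test). The relation of some adhesion genes to the myelin mean across the BXD strains was examined, and none passed, as given below. The part of these cell types in the strain differences of the adhesion genes was not tested. In bulk tissue fewer cells of a type and less RNA per cell cannot be told apart.

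The first comparison asked which adhesion genes changed with ethanol across the 27 BXD strain pairs. None of the 64 passed an adjusted p of 0.05 in limma's paired fit, in which 0.00758% of all genes passed, and the lowest adjusted p among them was 0.918. Before adjustment 2 genes had p below 0.05 (3.12%, against 4.93% of all genes), both higher after ethanol. Among all genes 651 had such a p, and 178 of them were higher (1.35% of all genes). Wilcoxon's signed-rank test on the same pairs passed 0 of the 64. The differences were small, from -0.08 to 0.12. They were above 0 for 42 genes and below 0 for 22, with a median of 0.02, where 37.6% of all genes lay above 0 and their median was -0.01.

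Among cadherins and protocadherins, the genes with the smallest p were Cdh10, Pcdh10 and Pcdh11x. Cdh10, a type II cadherin, had saline levels from 9.03 to 9.48 (median 9.26) and ethanol levels from 9.08 to 9.60 (median 9.37). The paired difference was 0.09 (SE 0.03, adjusted p = 0.934) and 19 of 27 strains were higher after ethanol, but the ranges overlapped nearly completely. With the mean of all probe sets of a gene the difference was 0.03 for Cdh10 and 0.03 for Pcdh11x. Pcdh10, a protocadherin needed for the growth of striatal axons, had a difference of 0.12 (SE 0.06), with 17 of 27 strains higher. It was 0.07 without BXD21. Its lowest saline value, 7.50 in BXD21, lay far below the saline median of 9.19, whereas its ethanol values ran from 9.002 to 9.652. Pcdh11x, an X-linked protocadherin, had a difference of 0.08 (SE 0.04), higher in 17 of 27 strains. Pcdh8, whose transcript is known to be induced by neuronal activity, ranged from 8.62 to 10.32 after saline (median 9.37) and from 9.03 to 9.94 after ethanol (median 9.40). Its difference of 0.05 (SE 0.06, adjusted p = 0.959) did not pass, with 16 of 27 strains higher.

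Among the molecules that organise synapses, the smallest p belonged to Cntn4, a contactin of axon guidance. Cntn4 ranged from 7.41 to 8.26 after saline (median 7.84) and from 7.67 to 8.35 after ethanol (median 8.02). Its difference of 0.10 (SE 0.04, adjusted p = 0.918) was positive in 18 of 27 strains. Lrrtm2, a postsynaptic ligand of neurexins, differed by 0.11 (SE 0.06) and was higher in 16 of 27 strains. All 6 contactins and all 4 Lrrtm genes had differences above 0, none past the threshold. Several other families also had more genes above 0 than below. These were type II cadherins (8 of 10), non-clustered protocadherins (7 of 9), contactin-associated proteins (3 of 4), type I cadherins (2 of 3) and Slitrk genes (3 of 5). Neurexins (1 of 2), neuroligins (1 of 3) and Cadm genes (1 of 3) did not. Cdh13, Cdh16 and Cdh23 were all below 0, and the clustered protocadherins divided 6 and 6. In the ethanol effect of C57BL6/J, 3 of 6 contactins and 1 of 4 Lrrtm genes were above 0, and in that of DBA/2J 4 of 6 and 3 of 4.

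None of the neurexins and neuroligins passed. Nrxn2 differed by -0.03 (95% interval -0.13 to 0.06) and Nrxn3 by 0.01 (-0.03 to 0.05). Nlgn1, the neuroligin of excitatory synapses, differed by 0.09 (-0.03 to 0.21), and its saline arrays spread from 6.69 to 7.94. Nlgn2, the neuroligin of inhibitory synapses, differed by -0.05 (-0.16 to 0.06). Nlgn3, found at both kinds of synapse, differed by -0.0050 (-0.07 to 0.06). Each was higher after ethanol in 13 or 14 of 27 strains, so the strains were close to evenly divided.

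**Figure D1:**
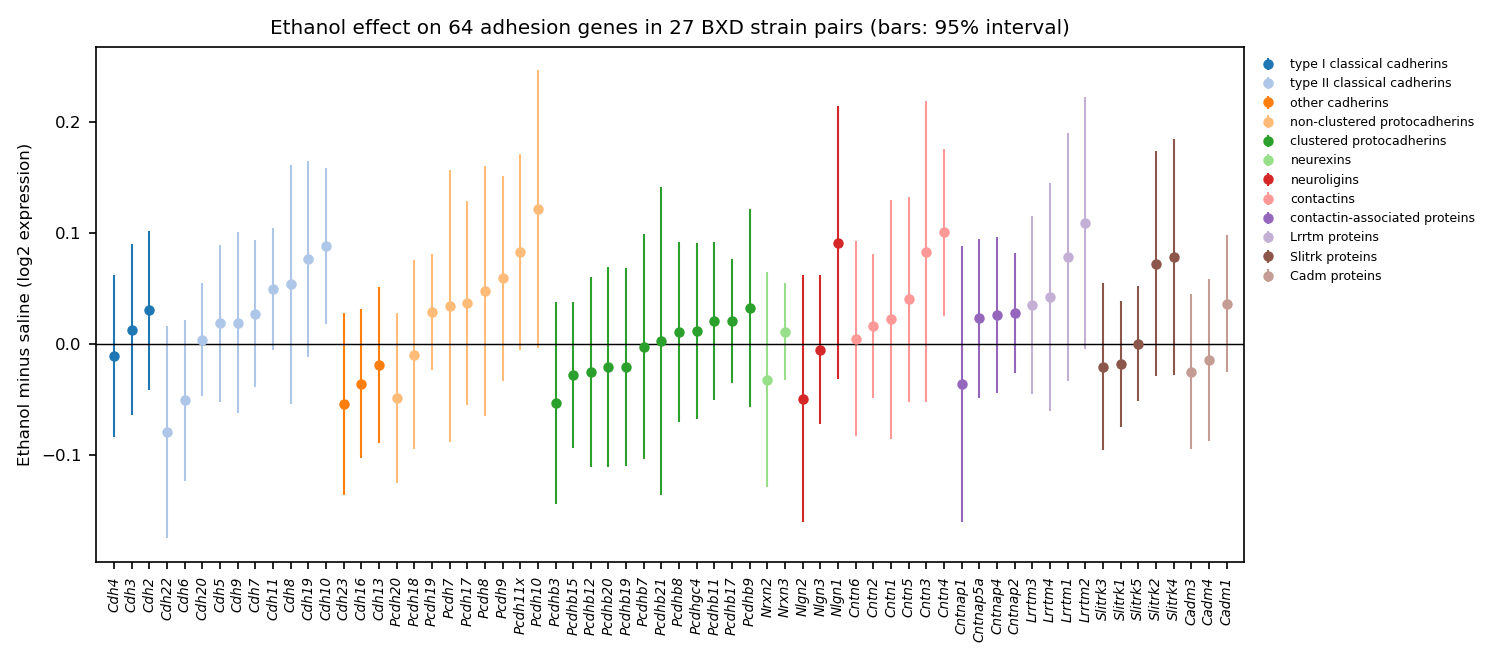
Paired ethanol minus saline difference (log2 expression) of each of the 64 genes in 27 BXD strains, grouped by family and ordered within it; points are limma estimates and bars their 95% intervals. The differences lie between -0.08 and 0.12, and no gene passed the adjusted threshold.

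The progenitors were then compared for their own ethanol effect, with 3 arrays against 3. In C57BL6/J none of the 64 genes passed in limma (background 0.00758%, smallest adjusted p = 0.922), and 4 had an unadjusted p below 0.05 (6.25%, against 4.98% of all genes). Pcdh9, a protocadherin of the delta-1 group, had the smallest p. Its values were 9.08, 9.26 and 9.12 after saline and 9.06, 8.76 and 8.72 after ethanol, so the arrays did not overlap, and the difference was -0.31 (SE 0.11, adjusted p = 0.922). Without overlap there were 1 gene higher and 2 lower after ethanol, and among all genes 3.78% and 6.07%. Pcdhb8 (0.23), Cntnap4 (-0.31), Cntn3 (0.31) and Cntn5 (-0.22) came next by p, and their arrays overlapped. Single arrays moved 3 of them: Cntn5 was -0.05 without ethanol replicate 1 and -0.37 without ethanol replicate 3, and Cntnap4 was -0.18 without saline replicate 2 and -0.50 without saline replicate 3. Cntn3 was 0.14 without saline replicate 2 and 0.15 with the mean of its probe sets.

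In DBA/2J none passed either (background 0%, smallest adjusted p = 0.146), and 12 had an unadjusted p below 0.05, or 18.8% against 12.5% of all genes. Of these 12, 11 were higher after ethanol. Among all genes 1643 had such a p, and 1092 of them were higher (8.28% of all genes). The largest difference was that of Cdh2, N-cadherin, the classical cadherin of excitatory synaptic junctions. It measured 8.58, 8.92 and 8.92 after saline and 9.28, 9.23 and 9.61 after ethanol. Every ethanol array lay above every saline array, and the difference was 0.57 (SE 0.13, adjusted p = 0.146). A second, dimmer probe set of Cdh2 differed by -0.11 in the same comparison, and with the mean of both the difference was 0.23. By p, the next were Pcdhb9 (0.33), Pcdh17 (0.45), Lrrtm4 (0.34) and Pcdhb17 (0.27), also without overlap. Without ethanol replicate 3 Pcdh17 was 0.25 and Lrrtm4 0.20, and with the mean of its probe sets Pcdh17 was 0.24. Without overlap there were 11 genes higher and 6 lower after ethanol, and among all genes 9.66% were higher and 8.22% lower.

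The mean of both progenitor effects passed for none of the 64 (background 0.0455%, smallest adjusted p = 0.452), and 6 had an unadjusted p below 0.05 (9.38%, against 8.84%). The smallest p values were those of Cdh2 (0.30), Cntn3 (0.32), Cntnap4 (-0.26), Lrrtm4 (0.23) and Pcdh9 (-0.19). With the mean of probe sets they were 0.10 for Cdh2, 0.14 for Cntn3, 0.10 for Lrrtm4 and -0.12 for Pcdh9. The difference of the responses, DBA/2J minus C57BL6/J, was tested directly as an interaction and also passed for none (background 0%, smallest adjusted p = 0.563). Before adjustment 8 genes had p below 0.05 (12.5%, against 8.31%). The smallest p values belonged to Cdh2 (0.53, SE 0.18), Pcdhb9 (0.38), Pcdhb20 (0.48), Cdh10 (0.30) and Pcdh17 (0.52). With the mean of probe sets Cdh2 was 0.26 and Cdh10 0.16, and with array weights Cdh10 was 0.20, Pcdh17 0.33 and Pcdhb9 0.24. Pcdh17 was 0.32 without DBA/2J ethanol replicate 3, and Pcdhb20 was 0.30 without C57BL6/J ethanol replicate 2. For the neurexins, the neuroligins and Pcdh8 the ethanol difference in either progenitor lay between -0.16 (Nlgn1, DBA/2J) and 0.12 (Pcdh8, C57BL6/J).

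Strain differences were larger. After saline, 10 of the 64 genes differed between DBA/2J and C57BL6/J in limma (15.6%, against a background of 10.3%), 2 higher and 8 lower in DBA/2J (4.07% and 6.27% of all genes). After ethanol there were 8 (12.5%, background 7.23%), 3 higher and 5 lower (4.34% and 2.89%). The arrays of the strains did not overlap for 5 higher and 17 lower genes after saline (15.8% and 14.6% of all genes) and for 8 and 6 after ethanol (16.2% and 8.93%). Both comparisons passed with the same sign for 6 genes (4.52% of all genes did so). Pcdhb3 and Pcdh9 were higher in DBA/2J (2.25% of all genes), and Pcdhb7, Cdh6, Cdh19 and Cntn4 were lower (2.27%). These comparisons use different arrays but 1 estimate of spread. The myelin markers described above were lower in DBA/2J in both. Without DBA/2J saline replicate 1, whose values were the least spread of the progenitor arrays (SD 2.07), 6 genes passed after saline, all among the 10. Without C57BL6/J ethanol replicate 1, 5 of the 8 passed after ethanol. With all 66 arrays in 1 fit, the spread between BXD strains entered the error. Then 2 passed after saline, Cdh2 and Pcdhb7, and 1 after ethanol, Pcdhb3. The shares of all genes in these other fits were not counted.

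**Figure D2:**
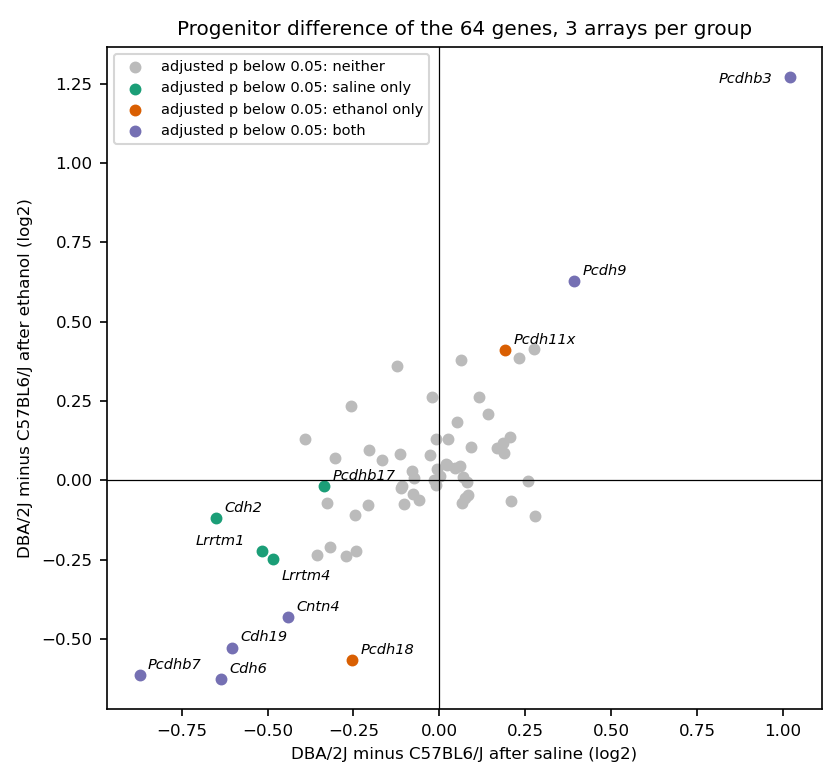
Difference between DBA/2J and C57BL6/J (log2) after saline (horizontal axis) and after ethanol (vertical axis) for each of the 64 genes, 3 arrays per group; colours mark the comparisons passed at an adjusted p below 0.05. The 6 genes passed in both lie in the upper right and lower left corners, and 4 were passed after saline only and 2 after ethanol only.

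Pcdhb3 and Pcdhb7, clustered protocadherins of the beta group, differed in opposite directions. Pcdhb3 measured 5.76, 5.69 and 5.98 in C57BL6/J and 6.73, 7.05 and 6.70 in DBA/2J after saline. After ethanol it measured 5.96, 5.73 and 5.80 against 6.90, 7.28 and 7.11. All DBA/2J arrays were above all C57BL6/J arrays, 2.03-fold after saline (95% interval 1.70 to 2.41, adjusted p = 2.9e-05) and 2.41-fold after ethanol (2.03 to 2.87, adjusted p = 2.6e-06). It was the largest difference of the 64 genes in either comparison.

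Pcdhb7 measured 5.68, 5.77 and 5.85 in C57BL6/J and 4.55, 5.01 and 5.13 in DBA/2J after saline, and 5.98, 5.64 and 5.62 against 5.07, 5.04 and 5.29 after ethanol. No DBA/2J array reached a C57BL6/J array. The differences were -0.87 (SE 0.13, adjusted p = 4.9e-04) and -0.61 (SE 0.13, adjusted p = 0.0093), though the DBA/2J mean of 4.90 after saline lay below the limit of the filter, where a fold change has no exact size. Without C57BL6/J ethanol replicate 1 the second was -0.50 (adjusted p = 0.050). Pcdhb17 passed after saline only (-0.34, SE 0.10, adjusted p = 0.041) and lost its call in 4 of 9 other settings. It also did not pass without C57BL6/J saline replicate 1, 2 or 3 or DBA/2J saline replicate 1 or 3, with an adjusted p of up to 0.163. The remaining 9 clustered protocadherins passed in neither comparison. Beta protocadherins are close paralogues, and how far their probes share signal was not tested.

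Of the 10 type II cadherins, Cdh6 and Cdh19 passed in both comparisons and the other 8 in neither. Cdh6, which marks compartments of the developing brain, measured 6.68, 6.48 and 6.53 in C57BL6/J and 5.81, 6.04 and 5.93 in DBA/2J after saline. After ethanol the values were 6.62, 6.30 and 6.58 against 5.69, 5.80 and 6.13. The groups did not overlap, and Cdh6 was 1.55-fold lower in DBA/2J after saline (95% interval 1.31 to 1.84, adjusted p = 0.0020) and 1.54-fold lower after ethanol (1.30 to 1.83, adjusted p = 0.0026). Cdh19, a cadherin known from the Schwann cell lineage, measured 6.05, 5.67 and 5.58 in C57BL6/J and 5.06, 5.29 and 5.14 in DBA/2J after saline. After ethanol it measured 5.93, 5.91 and 5.77 against 5.13, 5.59 and 5.31. Here too every DBA/2J array was the lower, with differences of -0.60 (SE 0.13, adjusted p = 0.0060) and -0.53 (SE 0.13, adjusted p = 0.018). The DBA/2J mean of 5.16 after saline lay close to the limit of the filter (5.10), so the size of that difference is not exact. The Cdh19 difference after ethanol did not pass without C57BL6/J ethanol replicate 1 (-0.50, adjusted p = 0.060). It likewise did not pass without C57BL6/J ethanol replicate 2 (-0.51) or DBA/2J ethanol replicate 1 (-0.42) or 3 (-0.51).

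Among the 9 non-clustered protocadherins, Pcdh9 was higher in DBA/2J. It measured 9.63, 9.67 and 9.34 in DBA/2J after saline and 9.33, 9.53 and 9.56 after ethanol, all above the C57BL6/J values given before. The differences were 0.39 (SE 0.11, adjusted p = 0.033) and 0.63 (SE 0.11, adjusted p = 0.0018). A second probe set of Pcdh9 had the opposite sign (-0.38 after saline, -0.07 after ethanol, neither passed), and a further probe set had the same sign (0.39 and 0.65, the latter passed). With the mean of its probe sets the saline difference was 0.13 (adjusted p = 0.481) and the ethanol difference 0.40 (adjusted p = 0.038). Without DBA/2J saline replicate 1 it was 0.35 and did not pass, nor did it without DBA/2J saline replicate 2 (0.33) or C57BL6/J saline replicate 1 (0.35) or 3 (0.38).

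Pcdh18, of the delta-2 group, passed after ethanol only. It measured 6.82, 6.59 and 6.89 in C57BL6/J and 6.28, 6.25 and 6.07 in DBA/2J, a gap larger than the spread of either group. The difference was -0.57 (SE 0.10, adjusted p = 0.0014), against -0.25 after saline, and the interaction of -0.31 did not pass (adjusted p = 0.585). Pcdh11x also passed after ethanol only (0.41, SE 0.12, adjusted p = 0.043), and the call was lost in 7 of 9 other settings, the highest adjusted p being 0.241. It was also lost in 6 of 12 fits without 1 array: C57BL6/J saline replicate 2, DBA/2J saline replicate 3, C57BL6/J ethanol replicates 1 and 2, and DBA/2J ethanol replicates 2 and 3 (adjusted p up to 0.154).

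Cntn4 passed in both comparisons, alone of the 6 contactins. Its values were 8.04, 8.06 and 7.97 in C57BL6/J and 7.55, 7.67 and 7.53 in DBA/2J after saline, and 8.16, 7.92 and 8.19 against 7.61, 7.73 and 7.63 after ethanol. The groups stood apart in both treatments, with differences of -0.44 (SE 0.09, adjusted p = 0.0031) and -0.43 (SE 0.09, adjusted p = 0.0042). A dimmer probe set of Cntn4 had the same sign without passing (-0.08 and -0.14), and with the mean of its probe sets the saline difference was -0.26 (adjusted p = 0.058) and the ethanol difference -0.29 (adjusted p = 0.046).

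**Figure D3:**
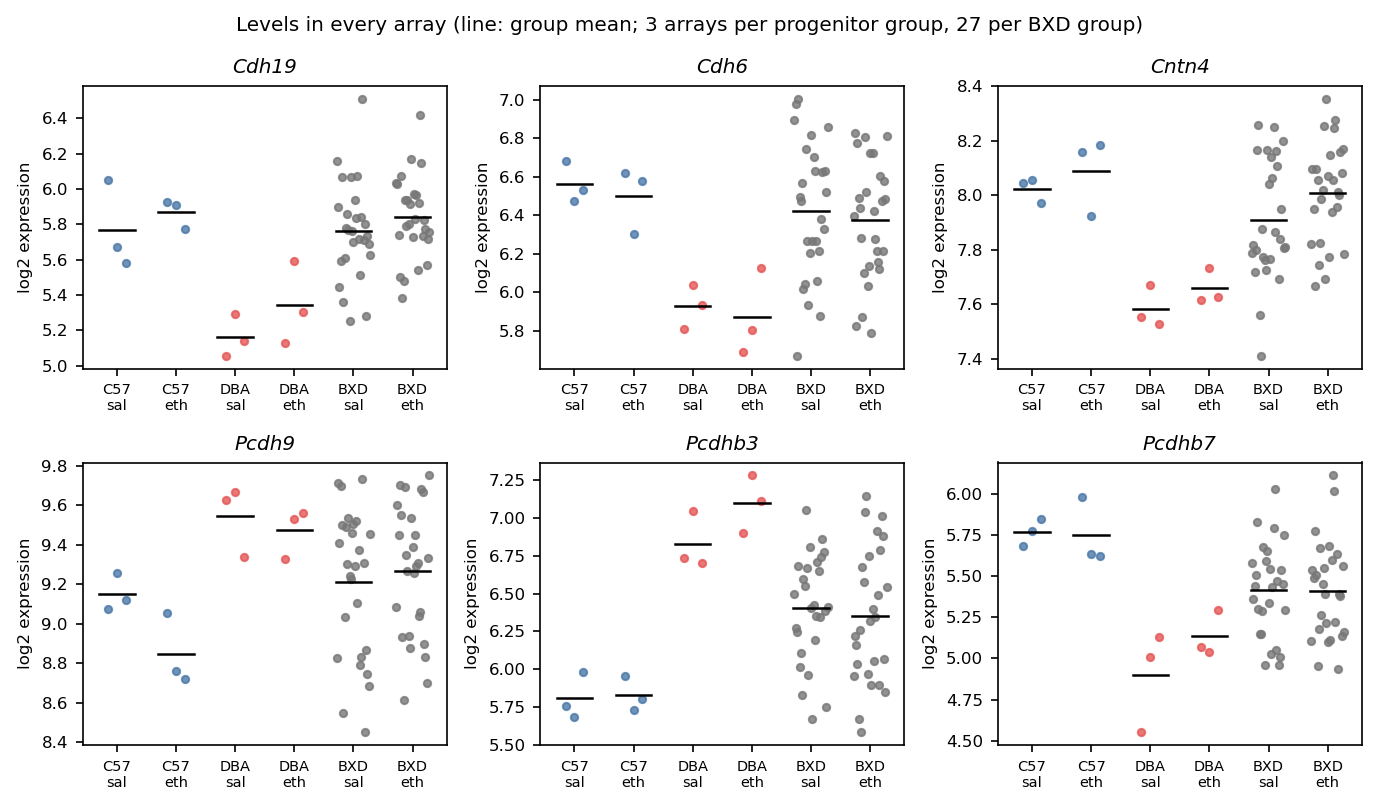
Log2 expression of the 6 genes that passed in both strain comparisons, in every array of the 6 groups (C57 for C57BL6/J, DBA for DBA/2J, sal for saline, eth for ethanol); points are arrays and lines group means. The progenitor strains do not overlap within a treatment, and the BXD arrays cover most of the interval between the progenitor means.

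Cdh2, Lrrtm1 and Lrrtm4 passed after saline and not after ethanol. Cdh2 measured 9.49, 9.35 and 9.54 in C57BL6/J after saline, above the DBA/2J values given before, with a difference of -0.65 (SE 0.13, adjusted p = 0.0042). After ethanol C57BL6/J measured 9.72, 9.25 and 9.51, and the strains overlapped (-0.12). The DBA/2J saline arrays also enter its ethanol difference given before. Its interaction, 0.53, did not pass, so the strain difference was not shown to depend on treatment. Its second probe set differed by -0.09 after saline and did not pass, and with the mean of both the difference was -0.37 (adjusted p = 0.018).

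Lrrtm1 and Lrrtm4 are postsynaptic leucine-rich repeat proteins that bind presynaptic partners. Lrrtm1 measured 8.88, 8.99 and 8.97 in C57BL6/J and 8.17, 8.61 and 8.50 in DBA/2J after saline (-0.52, SE 0.12, adjusted p = 0.012). Lrrtm4 measured 7.22, 7.12 and 6.98 against 6.39, 6.70 and 6.77 (-0.48, SE 0.13, adjusted p = 0.023). DBA/2J saline replicate 1 was the lowest array for both, and without it neither passed (-0.39, adjusted p = 0.063, and -0.37, adjusted p = 0.111). With the mean of its probe sets Lrrtm1 was -0.30 (adjusted p = 0.049). Lrrtm4 also failed to pass without C57BL6/J saline replicate 1 (-0.43) or 2 (-0.48). The 2 neurexins, 3 neuroligins, 4 contactin-associated proteins, 5 Slitrk and 3 Cadm genes passed in neither strain comparison. Their nearest to a call was Cntnap2, a partner of contactins at juxtaparanodes, with -0.32 after saline (SE 0.10, adjusted p = 0.063).

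The BXD panel was used to ask whether a strain keeps its own level. With the treatment means removed, 27 of the 64 genes had a strain effect in limma's moderated F test (42.2%, against a background of 20.4%), and 34 had an unadjusted p below 0.05 (32.9% of all genes). The intraclass correlation, which is near 1 when a strain's saline and ethanol arrays agree and strains differ, had a median of 0.282 over the 64 genes and 0.184 over all genes. It was at least 0.5 for 17 genes (background 13.3%) and at least 0.8 for 2 (2.42%). It was below 0 for 15, where the share of all genes was not counted. Without BXD38 the strain effect count was 18, all among the 27, and the share of all genes in that fit was not counted.

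The families differed in these counts. Of the non-clustered protocadherins 8 of 9 had a strain effect, with Pcdh7 the exception, and of the type II cadherins 6 of 10. Of the clustered protocadherins there were 5 of 12, of the contactins 3 of 6, of the contactin-associated proteins 2 of 4, and 1 each of 3 Cadm genes (Cadm3), 3 other cadherins (Cdh13) and 2 neurexins (Nrxn3). The neuroligins (0 of 3), Lrrtm (0 of 4), Slitrk (0 of 5) and type I cadherins (0 of 3) had none in limma, with 0, 2, 1 and 1 genes at an unadjusted p below 0.05. The difference between families was not tested.

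The highest intraclass correlations were those of Cdh6 (0.839) and Pcdhb3 (0.808), followed by Pcdh9 (0.742), Pcdhb17 (0.724), Cntnap2 (0.674), Pcdh18 (0.645), Pcdh20 (0.643) and Pcdhb12 (0.611). For Pcdhb3 the strain SD was 0.38 and the SD within a strain 0.18. Nrxn3 had a correlation of 0.605 on a narrow spread, since its saline arrays lay between 10.15 and 10.57 (strain SD 0.09, within-strain SD 0.06, adjusted p = 0.043). At the other end, Nlgn2 (-0.245), Nrxn2 (-0.224), Slitrk3 (-0.336), Cntnap1 (-0.334) and Cntn1 (-0.291) had values below 0, where a strain's arrays are no more alike than arrays of different strains.

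**Figure D4:**
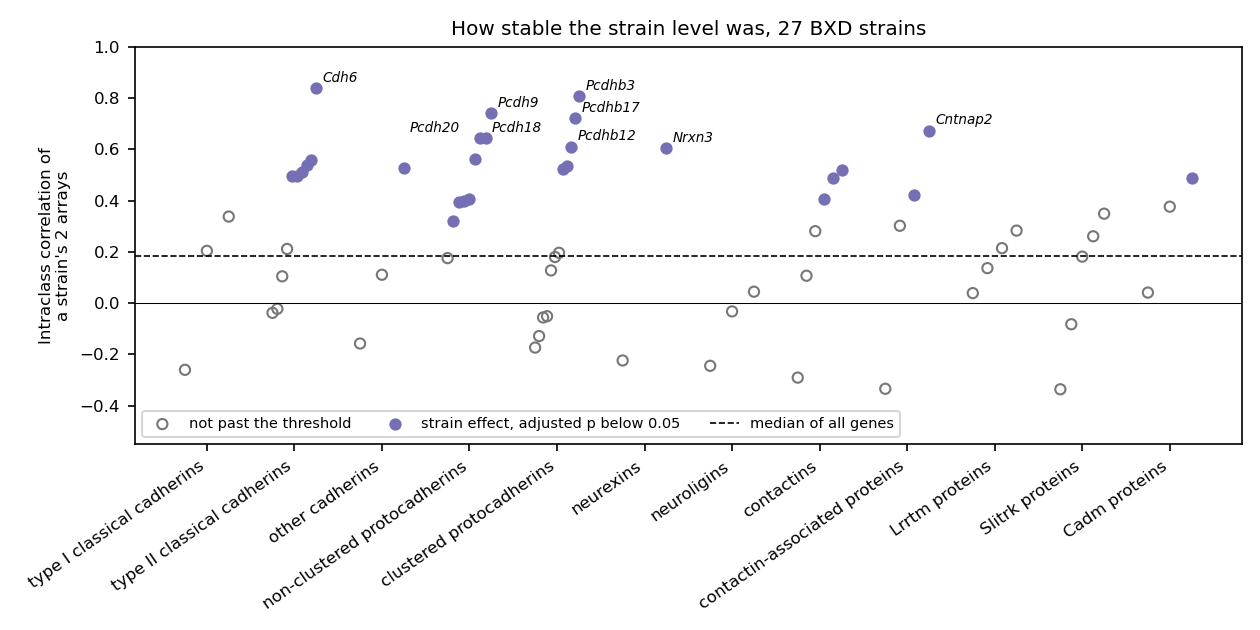
Intraclass correlation of the saline and ethanol arrays of a strain, by family, for the 64 genes in 27 BXD strains; filled points passed the strain effect test at an adjusted p below 0.05, and the dashed line is the median of all genes (0.184). Cdh6 and Pcdhb3 lie above 0.8, and the neuroligins lie at or below 0.05.

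The strain effect and the progenitor difference overlapped in part. Of the 12 genes that passed in either progenitor comparison, 9 had a BXD strain effect, which was 75% of those 12 and 33.3% of the 27. Over all genes the shares were 65.5% and 42%. The exceptions were Cdh2, Lrrtm1 and Lrrtm4, which had passed after saline only, as had Pcdhb17. Cdh2, Lrrtm1 and Lrrtm4 had intraclass correlations of 0.338, 0.215 and 0.283. In the other direction, 18 genes with a strain effect passed in neither progenitor comparison, Pcdh20 and Cntnap2 among them.

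The 6 genes that passed in both comparisons were set beside the midpoint of the progenitor means. Pcdhb3 had 12 BXD strain means on the DBA/2J side and 15 on the C57BL6/J side, and both arrays of a strain fell on the same side in 24 of 27. Its strain means ran from 5.70 to 7.05 without a clear gap. For Pcdh9 the division was 15 and 12, with the same side in 25 of 27. Pcdhb7 divided 12 and 15, with the same side in 19. Cntn4 divided 8 and 19, with the same side in 20. Cdh19 was uneven, with 3 strains on the DBA/2J side and 24 on the C57BL6/J side, and 13 strain means lay above the C57BL6/J mean.

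Cdh6 showed the sharpest division, in its second probe set. There the DBA/2J difference was -1.01 after saline and -1.22 after ethanol (adjusted p = 3.3e-06 and 4.2e-07 over all detected probe sets), and the intraclass correlation was 0.954. The strain means fell into 11 between 5.32 and 5.90 and 16 between 6.61 and 6.92, with no strain in a gap of 0.72. C57BL6/J lay at 6.70 ± 0.09 and DBA/2J at 5.69 ± 0.12 after saline (SD, n = 3), so each cluster held 1 progenitor. Both arrays of a strain fell on the same side in 27 of 27. In the brightest probe set the strain means were continuous from 5.75 to 6.90, 9 strains lay on the DBA/2J side, the same side was kept in 26 of 27, and 25 strains fell on the same side in both probe sets. Whether the DNA sequence under either probe set differs between the strains was not tested.

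**Figure D5:**
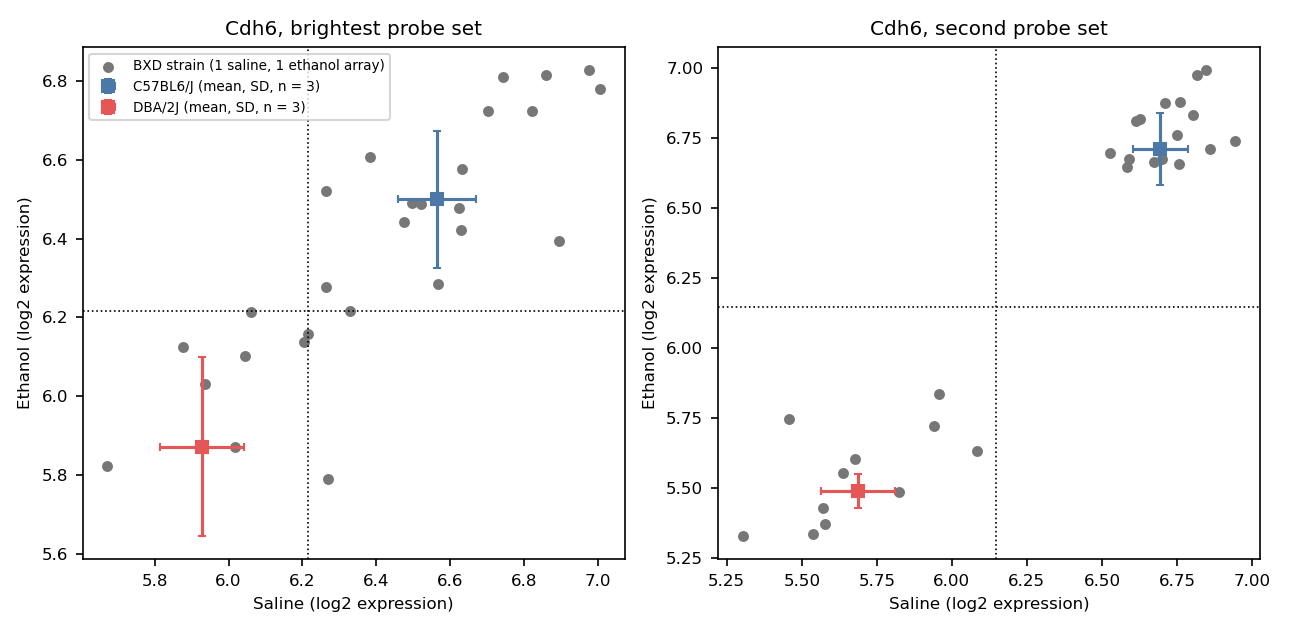
Ethanol against saline log2 expression of Cdh6 in each of 27 BXD strains (grey), in the brightest probe set (left) and the second (right); squares are progenitor means with SD bars (n = 3) and dotted lines the midpoint of the progenitor means. In the second probe set 11 strains lie with DBA/2J and 16 with C57BL6/J, with an empty gap of 0.72 between strain means.

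Other probe sets of the genes that passed mostly had the same sign, but most of them did not pass. After saline 7 of 8 further probe sets of 6 genes had the same sign and 1 of them passed. After ethanol 4 of 5 further probe sets of 4 genes had the same sign and 2 passed. None with the opposite sign passed, and the shares over all probe sets were not counted.

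Relations among the strain means of the 6 genes, and with the mean of the myelin markers, were also computed across the 27 strains. These 21 relations were chosen after the values were seen, and they do not test the part of myelin in the progenitor differences. None passed a permutation test (100000 permutations, two-sided; smallest unadjusted p = 0.117, smallest adjusted p = 0.989 for Pearson's r and 0.962 for Spearman's rho). For the myelin mean, r lay between -0.02 (Cntn4) and 0.19 (Pcdh9), rho between -0.12 and 0.18, and r without the 2 strains farthest from the median between -0.19 and 0.21.

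Partners of these molecules were read from 4 lists. Of 11 measured cadherin partners, such as catenins, none passed in either strain comparison in limma (1 and 0 at an unadjusted p below 0.05), with median differences of 0.06 and 0.02 where all genes had 0.02 and 0.03. Ctnna1, an alpha-catenin, came nearest after saline (-0.32, SE 0.10, adjusted p = 0.056). In the BXD strain effect 1 passed (9.09%, against 20.4% of all genes), Vcl, which encodes vinculin (intraclass correlation 0.658).

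Of 35 ligands and receptors of synaptic organisers, Ptprf, a receptor phosphatase, was higher (0.35, SE 0.09, adjusted p = 0.017) and Cbln1, a secreted ligand of neurexins, was lower (-0.27, SE 0.08, adjusted p = 0.049) in DBA/2J after saline, or 5.71% of the list against 10.3% of all genes. After ethanol none passed, and 3 had an unadjusted p below 0.05. The list's median differences were -0.04 and 0.07. A strain effect was present for 14 of the 35 (40%, against 20.4%), led by Cbln4 (0.806), Tenm1 (0.719) and Cbln2 (0.561).

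Of 22 scaffold proteins below neurexins and neuroligins, Dlgap2 of the postsynaptic density was lower in DBA/2J after saline (-0.63, SE 0.13, adjusted p = 0.0054), the 1 call of the list (4.55%). After ethanol none passed, with 2 at an unadjusted p below 0.05, and the median was -0.02 in both comparisons. A strain effect passed for 3 (13.6%, against 20.4%), namely Apba2, Cask and Dlgap2.

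Of 27 other neural adhesion molecules, 4 were higher (14.8%, against 4.07% of all genes) and none lower in DBA/2J after saline, with a median of 0.08: Fat4 (0.42), Igsf11 (0.37), Kirrel3 (0.48) and Fjx1 (0.30). After ethanol Kirrel3, an immunoglobulin adhesion protein, was higher by 0.94 (SE 0.13, adjusted p = 2.1e-04) and Fjx1 by 0.32, the 2 calls of the list (7.41%, against 4.34%; list median 0.05). A strain effect passed for 6 (22.2%, against 20.4%), led by Igsf11 (0.806). In the BXD ethanol effect none of the 4 lists had a gene that passed, and at an unadjusted p below 0.05 there was 1, Flrt1 of the synaptic organisers (-0.07).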

How the data were processed

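The deposited values are log2 expression levels of 45037 probe sets on 66 Affymetrix arrays, which the authors made by RMA in affy according to the submitters' processing notes, with no version or genome build recorded there. RMA corrects background, gives all arrays a like distribution and combines the probes of a set, so values are relative, and the number of arrays limits the precision. The platform annotation gave 34945 probe sets 1 symbol (932 several, 9160 none); 34741 were updated by a RefSeq gene table (GRCm38.p6), from which no coordinate was taken. Probe sets with several symbols, which include members of the clustered protocadherins, were not used. Probe sets below the 40th percentile were dropped and the brightest per symbol kept.

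Differences were tested with limma 3.58.1 in R 4.3.3 over all 13196 genes, two-sided, with Benjamini-Hochberg adjustment at 0.05. The BXD fit of 54 arrays had strain as a block (26 residual degrees of freedom). The progenitor fit had 12 arrays, 4 group means and 8 residual degrees of freedom. Nothing in the labels says that progenitor replicates are independent beyond their pools, so p-values measure the spread between pools. Batches are mentioned in the labels, but no batch is given for an array, so batches could not be tested. A batch shared by a strain's saline and ethanol arrays could not be told from strain. On simulated data the BXD fit recovered 94.5% of 200 genes changed by 0.25 log2 among 13196; the C57BL6/J contrast recovered 0% at 0.25, 67% at 0.5 and 99% at 1.

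The genes and lists were chosen with earlier results of these data known. Full statistics were given to genes past the threshold (at most 8 in each direction), otherwise to the 5 with the smallest p, to the 8 highest intraclass correlations, and always to neurexins, neuroligins and Pcdh8; in lists, to the 3 with the smallest p. Other genes are named after their values were seen. Alternatives varied the filter, probe set summary, scaling, prior, array weights, block, arrays in the fit and each array or strain left out.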

Additional observations from a re-analysis of the deposited data

How the results depend on the processing

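The ethanol effects in BXD, C57BL6/J and DBA/2J, their progenitor mean and the interaction had 0 genes past the threshold in every setting run, leaving out each array or strain included. For DBA/2J minus C57BL6/J after saline the count of 10 became 2 with all 66 arrays in 1 fit, and ranged from 6 (without DBA/2J replicate 1) to 11 when 1 array was left out. After ethanol the count of 8 became 1 with all 66 arrays, and ranged from 5 (without C57BL6/J replicate 1) to 9. The differences themselves are the same in the fit of all arrays; its larger error holds the BXD strains' spread by construction. The strain effect count of 27 ranged from 21 to 30 over other settings and from 18 (without BXD38) to 27 over strains left out. Shares of all genes were counted in the main fit only, so whether other genes lost calls at a like rate was not tested. With the replicate number as a block, 8 and 7 genes passed in the strain comparisons and 0 in the ethanol effects and the interaction; without the strain pairing, 0 passed in the BXD ethanol effect. Deviations of same-numbered progenitor arrays correlated between -0.39 and 0.26. Differently numbered arrays were not set beside them, so whether a replicate number marks a shared batch was not settled. Of 1837 values of named genes over all settings, 1786 kept their side of the threshold, 51 lost their call and 0 of those called changed sign. Most of the 1837 were ethanol effects or interactions that did not pass in the main fit, so they had no call to lose. All 51 losses fell in the DBA/2J minus C57BL6/J comparisons. Pcdh11x after ethanol lost most, in 7 of 9 other settings and 6 of 12 fits without 1 array. In a design of 3 against 3 arrays, differences of 0.25 were below what the simulated test could recover, so a missing call there does not show a missing effect.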
